A study of Homo sapiens with 12 samples.

Results

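The genes described here encode the respiratory chain: the subunits of complexes I to V from both the nuclear and the mitochondrial genome, with the complex I assembly factors of the NDUFAF family. They were taken as every protein-coding gene whose symbol begins with NDUF, UQCR, COX4 to COX8 or ATP5, is SDHA, SDHB, SDHC, SDHD or CYC1, or names a mitochondrial ND, CO, CYB or ATP gene. Of 112 such genes, 104 reached a normalised value of 10 in at least 3 libraries, out of 19281 genes that did so in all. They comprised 39 subunits or close relatives of complex I, 4 of complex II, 10 of complex III, 12 of complex IV, 18 of complex V, 8 NDUFAF factors and 13 mitochondrially encoded genes. The 8 genes below the limit were COX4I2, COX6A2, COX7A1, COX7B2, COX8C, ATP5MGL and the read-through genes ATP5MF-PTCD1 and NDUFC2-KCTD14.

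Poly-A RNA was sequenced from CUTLL1 cells, which carry a rearranged, active NOTCH1. They are a human T-lineage line used as a model of leukaemia of the T lineage (T-ALL). The labels give 4 groups of 3 libraries: 1 µM Compound E for 48 h, its DMSO vehicle for 48 h, 1 µM Compound E for 12 h, and DMSO for 12 h. Compound E is a gamma-secretase inhibitor (GSI) and blocks the cleavage that releases active NOTCH1. All groups are the same line, so no other genotype is represented, and the labels do not say whether replicates were separate cultures. P-values therefore measure the spread between these libraries, which may be technical. In bulk RNA, fewer cells of a kind and less RNA per cell cannot be told apart.

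The respiratory chain passes electrons from NADH (complex I) and succinate (complex II) through coenzyme Q, complex III and cytochrome c to oxygen at complex IV, and ATP synthase (complex V) uses the resulting proton gradient. Most subunits are nuclear-encoded and imported. The mitochondrial genome supplies core subunits of complexes I, III, IV and V, transcribed as long polycistronic RNAs that are cut into mRNAs and polyadenylated in the organelle, while complex II is wholly nuclear. Leukaemic T cells use both glycolysis and respiration, and NOTCH1 signalling is known to promote anabolic metabolism through MYC.

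The libraries held 73939612 to 160702764 reads assigned to genes. Mitochondrial mRNAs took 2.88% to 3.63% of them and the nuclear members 0.779% to 1.02%. All 10 T lineage markers were kept, with summed values of 265443 to 285667 in GSI 48 h, 290236 to 339894 in DMSO 48 h, 275765 to 304305 in GSI 12 h and 315893 to 367787 in DMSO 12 h. Of the markers of other lineages, 1 of 6 B cell, 3 of 6 myeloid, 1 of 5 erythroid and 2 of 8 stromal, epithelial or endothelial genes were kept, the highest being a B cell gene at 3042 normalised reads. The part of these markers in the results below was not tested.

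Some NOTCH1 targets were lower with GSI, and more of them differed between the time labels than between the treatment labels. NRARP, a direct NOTCH1 target, had 1995, 1776 and 1333 normalised reads in GSI 48 h, 3186, 3564 and 2340 in DMSO 48 h, 16831, 25383 and 23575 in GSI 12 h and 36766, 49346 and 40943 in DMSO 12 h. Its log2 fold change for GSI over DMSO was -0.83 at 48 h (limma adjusted p = 0.0247) and -0.96 at 12 h (adjusted p = 0.00638), against -3.82 for 48 h over 12 h within DMSO. Of 16 NOTCH1 target genes, 3 were lower in GSI at 48 h (5.35% of all genes were) and 7 at 12 h (11.4% of all genes), while 11 were lower at 48 h than at 12 h in DMSO (2.51% of all genes). Whether each label is as intended was not tested, so GSI, DMSO, 48 h and 12 h below mean libraries labelled so. Both GSI libraries numbered 2 also stood apart from the other GSI libraries. BNIP3, a hypoxia-induced mitophagy receptor, had 10874, 2692 and 6655 normalised reads in GSI 48 h, 1071, 936 and 1499 in DMSO 48 h, 11539, 2317 and 11408 in GSI 12 h and 405, 384 and 473 in DMSO 12 h. Counts of calls are therefore also given without both libraries numbered 2.

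A pair of sequences bears on how the mitochondrial values can be read, because nuclear copies of mitochondrial genes collect reads of their own. The stretch below of 60 bases covers bases 739 to 798 of the MT-ND1 transcript and bases 154 to 213 of MTND1P23, a nuclear copy on chromosome 1, in GENCODE release 29; capitals mark the bases that differ, G742A and A798G, counted from 1 at the 5′ end of the MT-ND1 transcript.
MT-ND1: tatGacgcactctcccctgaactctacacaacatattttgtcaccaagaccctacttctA
MTND1P23: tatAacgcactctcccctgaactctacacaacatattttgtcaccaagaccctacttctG
Over the 349 bases that aligned, the copy differed from MT-ND1 at 2 positions, an identity of 99.4%. Its values were 8.31% to 9.45% of the copy and gene together over the 12 libraries. MTND2P28, MTCO1P12 and MTATP6P1 were 98.4%, 98.7% and 98.5% identical to MT-ND2, MT-CO1 and MT-ATP6, and held 3.89% to 4.41%, 12.4% to 13.2% and 25.2% to 27.5% of the copy and gene together. The counting of such reads is not given in the sources used here, so values of these 4 mitochondrial genes are uncertain. The size of the error is not known and may exceed the share their copies hold.

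The promoters of 3 nuclear genes with lower values in GSI are shown for the motifs in them: NDUFS3, a core subunit of complex I, and the assembly factors NDUFAF4 and NDUFAF5. Each is the 250 bases before the gene's start in RefSeq on GRCh38.p14, written 5′ to 3′ on the gene's strand, at chr11:47578824-47579073 (plus strand), chr6:96897892-96898141 (minus strand) and chr20:13784778-13785027 (plus strand). Capitals mark CCGGAAG or its reverse complement, the core bound by ETS factors such as GABPA, and CACGTG, the E-box core bound by MYC.
NDUFS3: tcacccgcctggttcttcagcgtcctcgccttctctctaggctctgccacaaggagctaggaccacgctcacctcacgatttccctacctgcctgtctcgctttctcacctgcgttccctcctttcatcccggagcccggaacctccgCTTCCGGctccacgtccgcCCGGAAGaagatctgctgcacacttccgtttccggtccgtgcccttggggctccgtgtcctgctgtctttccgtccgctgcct
NDUFAF4: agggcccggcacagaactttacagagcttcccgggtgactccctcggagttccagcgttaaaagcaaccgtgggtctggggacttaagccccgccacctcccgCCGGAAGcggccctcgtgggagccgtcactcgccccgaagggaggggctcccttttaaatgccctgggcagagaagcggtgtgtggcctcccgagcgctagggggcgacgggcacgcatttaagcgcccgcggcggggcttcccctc
NDUFAF5: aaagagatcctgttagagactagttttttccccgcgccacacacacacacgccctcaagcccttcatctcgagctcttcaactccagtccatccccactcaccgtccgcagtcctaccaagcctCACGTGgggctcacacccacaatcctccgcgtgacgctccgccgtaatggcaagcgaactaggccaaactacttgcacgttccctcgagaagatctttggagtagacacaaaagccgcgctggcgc
RefSeq promoters were matched for 74 of 91 nuclear members and searched on both strands, with overlapping matches of different motifs in 1 of them. The ETS core stood in 18 of them (24.3%), against 15.4% of 10840 kept protein-coding genes and 8.82% of all 27305 promoters. TGCGCA, the core of the NRF1 motif, stood in 16 member promoters (21.6%), against 11.2% of kept protein-coding genes and 7.05% of all promoters. The E-box was found in 7 (9.46%), against 8.72% of kept protein-coding genes and 6.49% of all. Among the 6 members lower in GSI at 12 h whose promoter was matched, the ETS core stood in 2, the E-box in 1 and the NRF1 core in 0. These matches describe letters in a window and not binding.

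At both times the respiratory chain genes that passed the test were lower in GSI than in DMSO, and they were few. At 48 h, 5 of 104 members were lower (4.81%, against 5.35% of all genes tested) and 0 were higher (4.33% of all genes). These were NDUFS3, CYC1, NDUFAF4, MT-ND1 and MT-ND2. At 12 h, 10 of 104 were lower (9.62%, against 11.4% of all genes) and 0 higher (10.1% of all genes): NDUFS3, NDUFC2, CYC1, ATP5MC1, MT-ND1, NDUFAF2, NDUFAF4, NDUFAF5, NDUFAF6 and NDUFAF8. Both shares of lower members were near those of all genes. Calls are limma with Benjamini-Hochberg adjustment over all genes at 0.05. For the higher direction, 1 member at 48 h and 5 at 12 h had an unadjusted limma p under the same 0.05, where 2644 and 3362 of the 19281 genes did. For the lower direction 27 and 20 members did, where 3124 and 3736 genes did. By edgeR 0 members were higher at either time, and by DESeq2 0 at 48 h and 1 at 12 h. At 12 h, limma called 3 members higher with upper-quartile scaling and 4 with total scaling over nuclear genes.

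Below the threshold, small negative differences were widespread among nuclear members. At 48 h, 80 of 91 nuclear members had a negative log2 fold change with a median of -0.20, and at 12 h 64 of 91 with a median of -0.12. Of all genes, 50.4% were negative at 48 h and 49.9% at 12 h, with a median of 0.00 at both times. That median is no independent reference, as it lay near 0 in every library after scaling by size factors. Groups did not overlap, with GSI lower, for 20 of 104 members at 48 h (19.2%, against 18.5% of all genes) and 12 at 12 h (11.5%, against 19.3% of all genes). With upper-quartile scaling the nuclear medians were -0.11 at 48 h and -0.03 at 12 h, and the median of all genes moved up by 0.0894 and 0.0884. Whether other genes as abundant as the members were lower alike was not tested. Under the deposited scaling, leaving out 1 library at a time gave nuclear medians of -0.28 to -0.14 at 48 h. At 12 h they were -0.24 to -0.02, the value nearest 0 without GSI library 3. The 13 mitochondrial genes had medians of -0.11 at 48 h and 0.02 at 12 h. Leaving out 1 library gave -0.19 to -0.01 at 48 h and -0.07 to 0.12 at 12 h, with negative 12 h medians without GSI library 2 or DMSO library 1, so no direction is drawn from the 12 h median.

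By the rule that every pair pass 0.1, library numbers paired at 48 h (correlations of 0.103 to 0.157) and not at 12 h (0.0676 to 0.272). Between GSI 48 h and DMSO 12 h they were 0.0991 to 0.197, so a pairing particular to 48 h is not shown. With the number as a block over all 12 libraries, 30 members were lower at 48 h (28.8%, against 15.5% of all genes). At that time 1 was higher, NDUFV2 (11.8% of all genes were higher). The same block at 12 h gave 22 lower (21.2%, against 19.6% of all genes) and 7 higher (6.73%, against 16.5%). With no block and without both GSI libraries numbered 2, 35 members were lower at 48 h (33.7%, against 11.9% of all genes) and 31 at 12 h (29.8%, against 16.2%). In that fit 1 member was higher at each time, where 9.04% of all genes were higher at 48 h and 13.6% at 12 h. The libraries left out were picked by gene values and had the highest member medians of their GSI groups. Leaving them out lowers the GSI means of these genes, so the added lower calls are not separate support. The 48 h calls were sensitive to single libraries, as were those of all genes. At 48 h, 0 members passed without GSI library 1 or 3 or DMSO library 1 or 2 of that time (119 to 405 of all genes did). There 1 passed without DMSO library 3 (889 genes), and 12 passed without GSI library 2 (3036 genes). At 12 h, 4 passed without GSI library 1 or 3 or DMSO library 2 (1599 to 2341 genes). Without DMSO library 3 it was 5 (3330 genes), and without GSI library 2 it was 29 (5662 genes). CYC1, NDUFAF4, NDUFAF5 and NDUFAF6 were the members called at 12 h in every fit that left out 1 library.

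**Figure D1:**
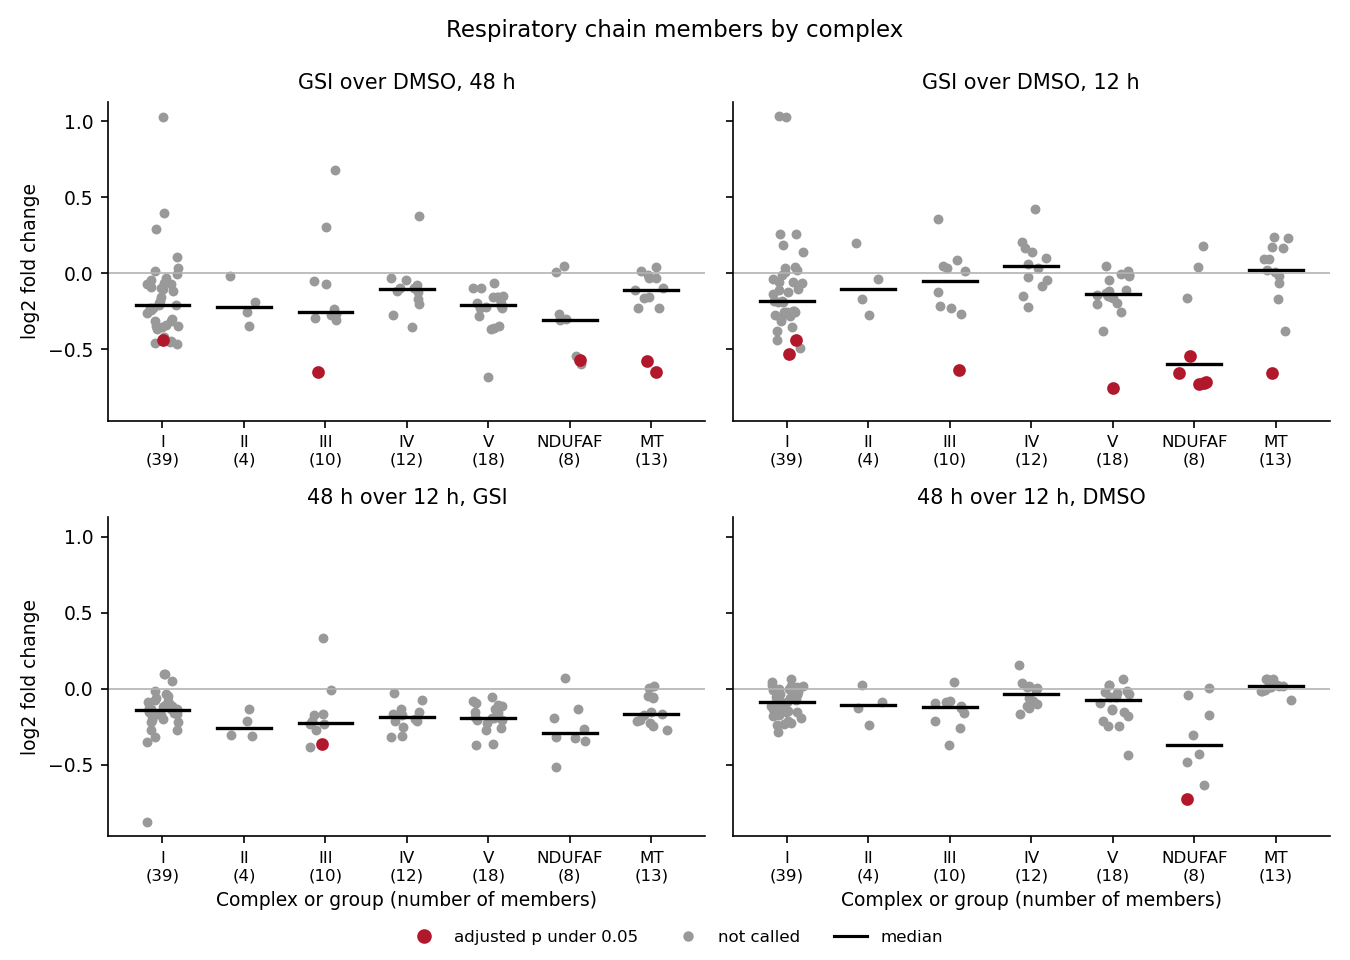
Log2 fold changes of the 104 members (vertical axis) by complex, NDUFAF family and mitochondrial genome, for GSI over DMSO at 48 h and 12 h and for 48 h over 12 h within GSI and within DMSO; red points passed limma at an adjusted p of 0.05 and bars are medians. Nuclear medians lie below 0 in most groups, and the NDUFAF group at 12 h is lowest at -0.60.

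Among the mitochondrial genes, MT-ND1 fell in GSI at both times and MT-ND2 at 48 h. The other 11 did not pass the main test, which had no block, at either time. MT-ND1, the membrane subunit of complex I at the site of coenzyme Q reduction, had 76854, 106708 and 78383 normalised reads in GSI 48 h against 132741, 138514 and 134036 in DMSO 48 h. At 12 h it had 77524, 117809 and 67736 in GSI against 131708, 141035 and 130177 in DMSO. Every GSI library was below every DMSO library at both times, with the libraries numbered 2 the highest of each GSI group. The log2 fold change was -0.65 at 48 h (SE 0.17, limma adjusted p = 0.0347), and it was -0.66 at 12 h (SE 0.17, adjusted p = 0.0177). Values thus fell by 36.1% at 48 h and 36.5% at 12 h. Without both GSI libraries numbered 2 the log2 fold changes were -0.80 and -0.89 (limma adjusted p = 0.000397 at 48 h and 9.7e-05 at 12 h). As those libraries were the GSI ones nearest DMSO for MT-ND1, that fit is not separate support. At 12 h the call was lost when GSI library 1 or 3 or DMSO library 2 was left out, with a highest adjusted p of 0.0775, and at 48 h it held in 7 of 12 fits that each left out 1 library, with a highest adjusted p of 0.152.

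MT-ND2, another membrane subunit of complex I, had 79021, 105740 and 77776 normalised reads in GSI 48 h against 115801, 135316 and 136886 in DMSO 48 h, with no overlap. Its log2 fold change at 48 h was -0.57 (SE 0.16, limma adjusted p = 0.0438), a call kept in 5 of 12 fits that each left out 1 library, with a highest adjusted p of 0.171. At 12 h it had 97277, 131064 and 89244 in GSI against 111825, 151614 and 147504 in DMSO, which overlapped, and a log2 fold change of -0.38 (adjusted p = 0.11). The nuclear copy MTND1P23 had 7583, 10574 and 7202 in GSI 48 h against 12435, 13582 and 12144 in DMSO 48 h, with a log2 fold change of -0.61 (adjusted p = 0.0555), and MTND2P28 had a log2 fold change of -0.60 (adjusted p = 0.0298). Reads of a gene and of its copy may be the same transcripts, so the copies are not separate evidence.

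**Figure D2:**
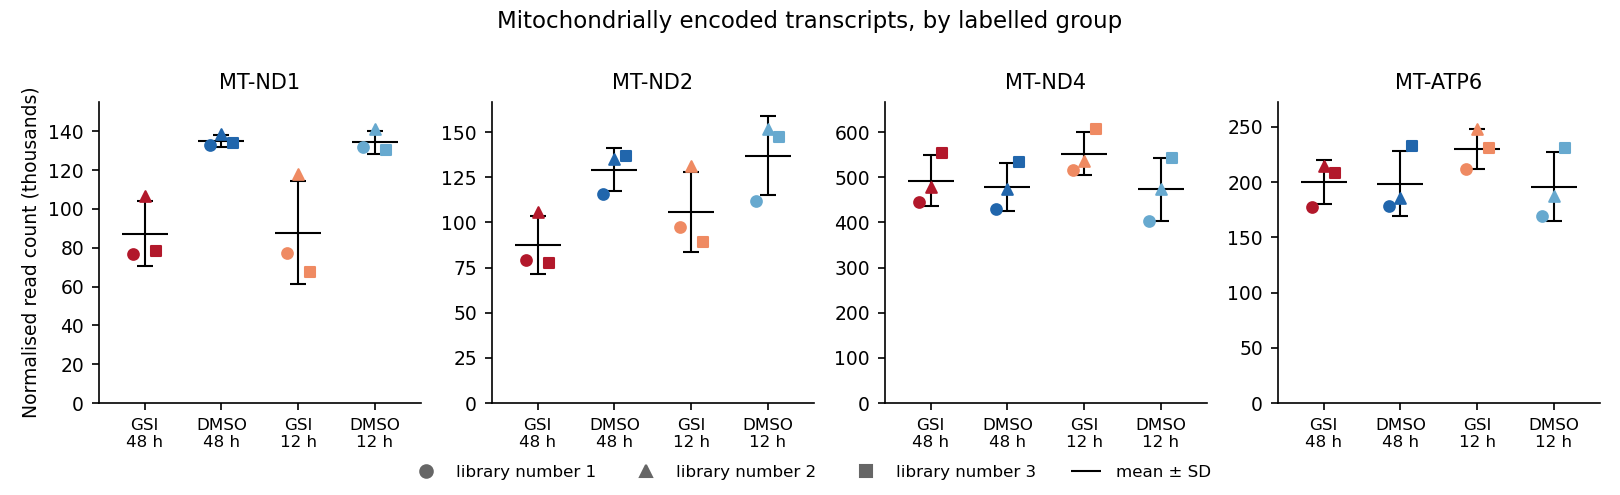
Normalised reads, divided by 1000, of MT-ND1, MT-ND2, MT-ND4 and MT-ATP6 in each library of GSI 48 h, DMSO 48 h, GSI 12 h and DMSO 12 h, with the mean and SD (n = 3). MT-ND1 is lower in every GSI library than in every DMSO library of its time, while MT-ND4 and MT-ATP6 groups overlap.

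The other complex I mRNAs of the organelle did not pass the main test. MT-ND4, a proton-pumping subunit, had 445669, 478328 and 553966 normalised reads in GSI 48 h against 428795, 473387 and 533085 in DMSO 48 h, which overlapped, with log2 fold changes of 0.04 at 48 h and 0.23 at 12 h. MT-ND3, MT-ND4L, MT-ND5 and MT-ND6 had log2 fold changes of -0.23, -0.03, -0.10 and -0.03 at 48 h, and of -0.02, 0.17, -0.06 and 0.10 at 12 h. MT-CYB, the mitochondrial subunit of complex III, had -0.22 at 48 h and -0.17 at 12 h. For complex IV, MT-CO1, MT-CO2 and MT-CO3 had -0.11, -0.16 and -0.16 at 48 h and 0.01, 0.09 and 0.02 at 12 h. The ATP synthase genes MT-ATP6 and MT-ATP8 had 0.02 and -0.01 at 48 h, and 0.24 and 0.17 at 12 h. None of these 11 passed limma without a block. With the replicate block, 3 of the 13 mitochondrial genes were lower at 48 h (23.1%, against 15.5% of all genes), MT-ND1 and MT-ND2 among them. The block at 12 h gave 2 lower (15.4%, against 19.6%) and 2 higher (15.4%, against 16.5%). Those 2 higher genes are among these 11, as MT-ND1 and MT-ND2 were negative. Several mitochondrial genes share bases: MT-ATP8 and MT-ATP6 overlap by 46 bases, MT-ND4L and MT-ND4 by 7, so their reads are not fully separable.

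**Figure D3:**
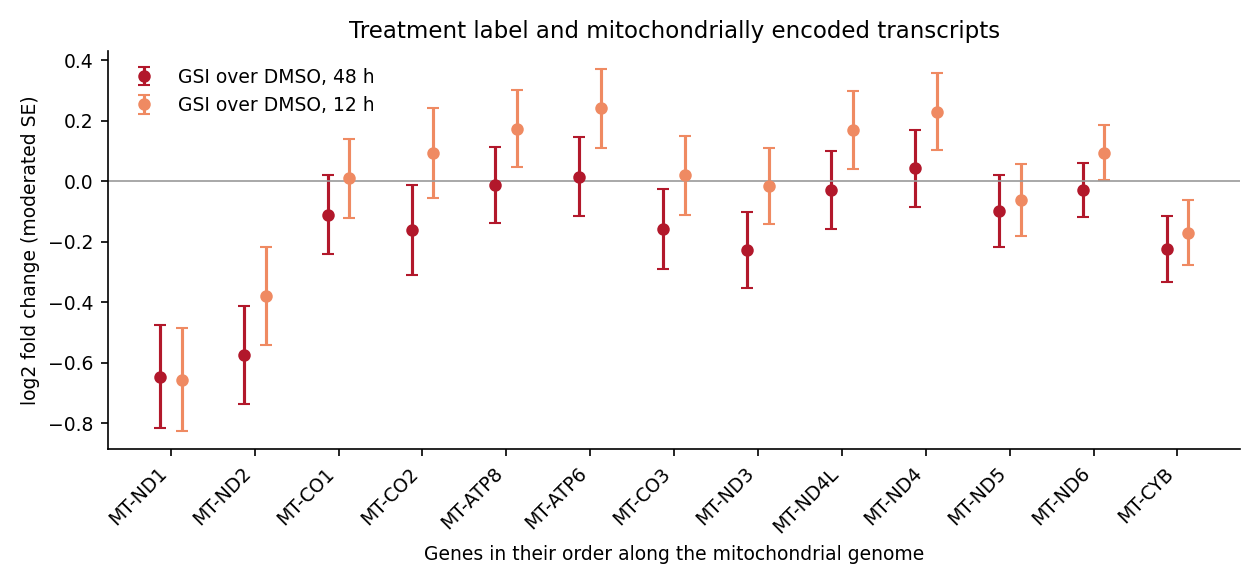
Log2 fold changes of GSI over DMSO for the 13 mitochondrial mRNAs in genome order (horizontal axis), at 48 h and 12 h, with the moderated SE. MT-ND1 and MT-ND2, the first mRNAs after the ribosomal RNAs, are lowest at both times, at -0.65 and -0.57 at 48 h and -0.66 and -0.38 at 12 h.

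The makeup of the mitochondrial mRNA pool does not depend on the scaling between libraries. All genes of a library are divided by the same total, so the order of their log2 fold changes is kept by construction. The shares are therefore not separate support for that order. MT-ND1 was 2.80% ± 0.395 of mitochondrial mRNA values in GSI 48 h against 3.99% ± 0.450 in DMSO 48 h, and 2.54% ± 0.604 in GSI 12 h against 4.04% ± 0.542 in DMSO 12 h (SD, n = 3 each). MT-ND2 was 2.81% ± 0.386 in GSI 48 h against 3.80% ± 0.269 in DMSO 48 h, and 3.08% ± 0.459 in GSI 12 h against 4.07% ± 0.397 in DMSO 12 h. Both genes' groups were apart at both times, where 3 libraries against 3 cannot give less than the p of 0.1 reached (two-sided exact permutation test, 0.236 after Benjamini-Hochberg adjustment over 26 tests). Shares of MT-ND4 and MT-ATP6 were higher in every GSI library than in every DMSO library of the same time, with the same p. Groups were also apart for MT-CYB (lower in GSI) and MT-ATP8 (higher) at 12 h and for MT-ND6 (higher) at 48 h, again with a p of 0.1 by the exact permutation test. Shares sum to 100%, so a lower share of 1 gene raises the others.

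Levels per kilobase of mitochondrial genes spanned from 112843 normalised reads per kilobase for MT-ND6, the light-strand mRNA, to 775515 for MT-CO2 in DMSO 12 h. MT-CO3 was next at 710801, and MT-CO1 stood at 398486. MT-ND2 and MT-ND1 were the lowest heavy-strand mRNAs in DMSO 12 h. Like MT-CO1, both have close nuclear copies, so their levels and this order are uncertain. These levels are descriptions over 3 libraries.

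In complex I, NDUFS3 fell in GSI at both times and NDUFC2 at 12 h, out of 39 nuclear members. NDUFS3, a core subunit of the hydrophilic arm, had 7118, 9013 and 8008 normalised reads in GSI 48 h against 10306, 11289 and 11048 in DMSO 48 h, and 7843, 10638 and 8130 in GSI 12 h against 10803, 12959 and 12032 in DMSO 12 h. The groups did not overlap at either time. Its log2 fold change was -0.44 at 48 h (SE 0.12, limma adjusted p = 0.0409) and -0.44 at 12 h (adjusted p = 0.0242). Of its exon length, 22.4% is shared with CELF1, KBTBD4 or PTPMT1 when strand is ignored, so some of its reads are uncertain. NDUFC2, an accessory subunit of the membrane arm, had 697, 944 and 692 in GSI 12 h against 1014, 1262 and 1078 in DMSO 12 h, again with no overlap, and a log2 fold change of -0.53 (adjusted p = 0.0322); at 48 h it was -0.46 (adjusted p = 0.079). The complex I median was -0.21 at 48 h and -0.18 at 12 h.

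Other complex I genes did not pass. NDUFS1, which carries iron-sulfur clusters, had log2 fold changes of -0.09 at 48 h and -0.06 at 12 h. NDUFV2, a flavoprotein-arm subunit, had 418, 205 and 547 normalised reads in GSI 48 h against 273, 144 and 139 in DMSO 48 h, and a log2 fold change of 1.03 at both times (limma adjusted p = 0.152 at 48 h and 0.121 at 12 h). Its groups overlapped through GSI library 2, and 28.4% of its exon length is shared with another gene. With the replicate block at 48 h it passed (limma adjusted p = 0.027), and 11 of 39 complex I members were lower (28.2%, against 15.5% of all genes). The same block at 12 h gave 8 lower (20.5%, against 19.6% of all genes) and 3 higher (7.69%, against 16.5%). NDUFA4, now counted with complex IV, and its hypoxia-inducible relative NDUFA4L2 did not pass. NDUFA4L2 had 66, 53 and 185 in GSI 48 h against 106, 75 and 36 in DMSO 48 h, and 98, 81 and 513 in GSI 12 h against 122, 85 and 45 in DMSO 12 h. Only the GSI libraries numbered 3 were above all DMSO libraries.

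Complex II had no call with limma at either time, with 2 of 4 members at an unadjusted p under 0.05 at each. Of all 19281 genes, 5768 at 48 h and 7098 at 12 h had such a p. The 2 members were both lower at 48 h, while at 12 h 1 was higher and 1 lower. With the replicate block SDHB and SDHD passed at 48 h (limma adjusted p = 0.00852 and 0.0129). The same block at 12 h gave 1 of 4 lower (25.0%, against 19.6% of all genes) and 0 higher (16.5% of all genes) in complex II. SDHB, its iron-sulfur subunit, had 5197, 6505 and 5353 normalised reads in GSI 48 h against 6659, 7485 and 7497 in DMSO 48 h, which did not overlap, with a log2 fold change of -0.35 (limma adjusted p = 0.0778). SDHA, the flavoprotein that oxidises succinate, had 9975, 10566 and 9726 in GSI 12 h against 8493, 8558 and 9339 in DMSO 12 h, which did not overlap either, with a log2 fold change of 0.20 (adjusted p = 0.0989). At 48 h SDHA was at -0.01.

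In complex III, CYC1 fell at both times and was the only one of 10 nuclear members to pass. CYC1 is cytochrome c1, the haem protein that hands electrons to cytochrome c. It had 6978, 8475 and 6860 normalised reads in GSI 48 h against 11176, 11678 and 11977 in DMSO 48 h, and 9610, 11797 and 7945 in GSI 12 h against 13978, 16917 and 14323 in DMSO 12 h. All GSI libraries were below all DMSO libraries of the same time. Its log2 fold change was -0.65 at 48 h (SE 0.13, limma adjusted p = 0.0163) and -0.64 at 12 h (SE 0.13, adjusted p = 0.0071). The 12 h call held in all 12 fits that each left out 1 library, and the 48 h call in 8, with a highest adjusted p of 0.0859 at 48 h. The complex III median was -0.25 at 48 h and -0.05 at 12 h.

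Complex IV had no limma call among its 12 nuclear members, with medians of -0.11 at 48 h and 0.05 at 12 h. Of these members 0 at 48 h and 1 at 12 h, higher in GSI, had an unadjusted p under 0.05, where 5768 and 7098 of the 19281 genes did. The 12 h median was -0.06 without both GSI libraries numbered 2, and with the replicate block COX5B passed at 48 h (log2 fold change -0.27, limma adjusted p = 0.0361). It was 1 of 12 lower there (8.33%, against 15.5% of all genes). The same block at 12 h gave 1 of 12 higher (8.33%, against 16.5% of all genes) and 0 lower (19.6% of all genes). COX4I1, the common form of the regulatory subunit, had 25175, 28624 and 27462 normalised reads in GSI 48 h against 26428, 28257 and 30971 in DMSO 48 h, and log2 fold changes of -0.07 at 48 h and -0.02 at 12 h. Its hypoxia-linked form COX4I2 was below the value limit, at 0 to 3 normalised reads. The muscle forms COX6A2 and COX7A1 were below it too, while their common forms COX6A1 and COX7A2, and COX8A beside COX8C, were kept and did not pass. COX6B2, the testis form of COX6B1, had 120, 106 and 141 in GSI 48 h against 98.4, 83.1 and 98.8 in DMSO 48 h, with no overlap. Its log2 fold changes were 0.38 at 48 h (limma adjusted p = 0.194) and 0.42 at 12 h (adjusted p = 0.12), and 30.9% of its exon length is shared with another gene. COX7B had the smallest p at 48 h, with a log2 fold change of -0.35 (adjusted p = 0.182).

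In complex V, ATP5MC1 fell at 12 h, out of 18 nuclear members. It is 1 of the genes, with ATP5MC2 and ATP5MC3, that encode the same c subunit of the membrane rotor. ATP5MC1 had 5018, 6901 and 3341 normalised reads in GSI 12 h against 7079, 9442 and 8289 in DMSO 12 h, and 3292, 4862 and 3369 in GSI 48 h against 5496, 6263 and 6501 in DMSO 48 h. The groups did not overlap at either time, and GSI library 2 came nearest to DMSO. Its log2 fold change was -0.75 at 12 h (SE 0.22, limma adjusted p = 0.0286) and -0.68 at 48 h (adjusted p = 0.0634). ATP5MC2 and ATP5MC3 had -0.22 and -0.22 at 48 h and -0.20 and -0.16 at 12 h, and neither passed. ATP5MC1 gave 7.70% ± 0.972 of the 3 genes' summed values in GSI 48 h against 10.3% ± 0.280 in DMSO 48 h, and 8.58% ± 1.62 in GSI 12 h against 12.1% ± 0.713 in DMSO 12 h (SD, n = 3). Both differences had an exact permutation p of 0.1, the smallest that 3 against 3 allows. ATP5F1B, the catalytic beta subunit, had -0.28 at 48 h (adjusted p = 0.14) and -0.26 at 12 h (adjusted p = 0.137), and the ATP synthase inhibitor ATP5IF1 had -0.20 and -0.04.

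**Figure D4:**
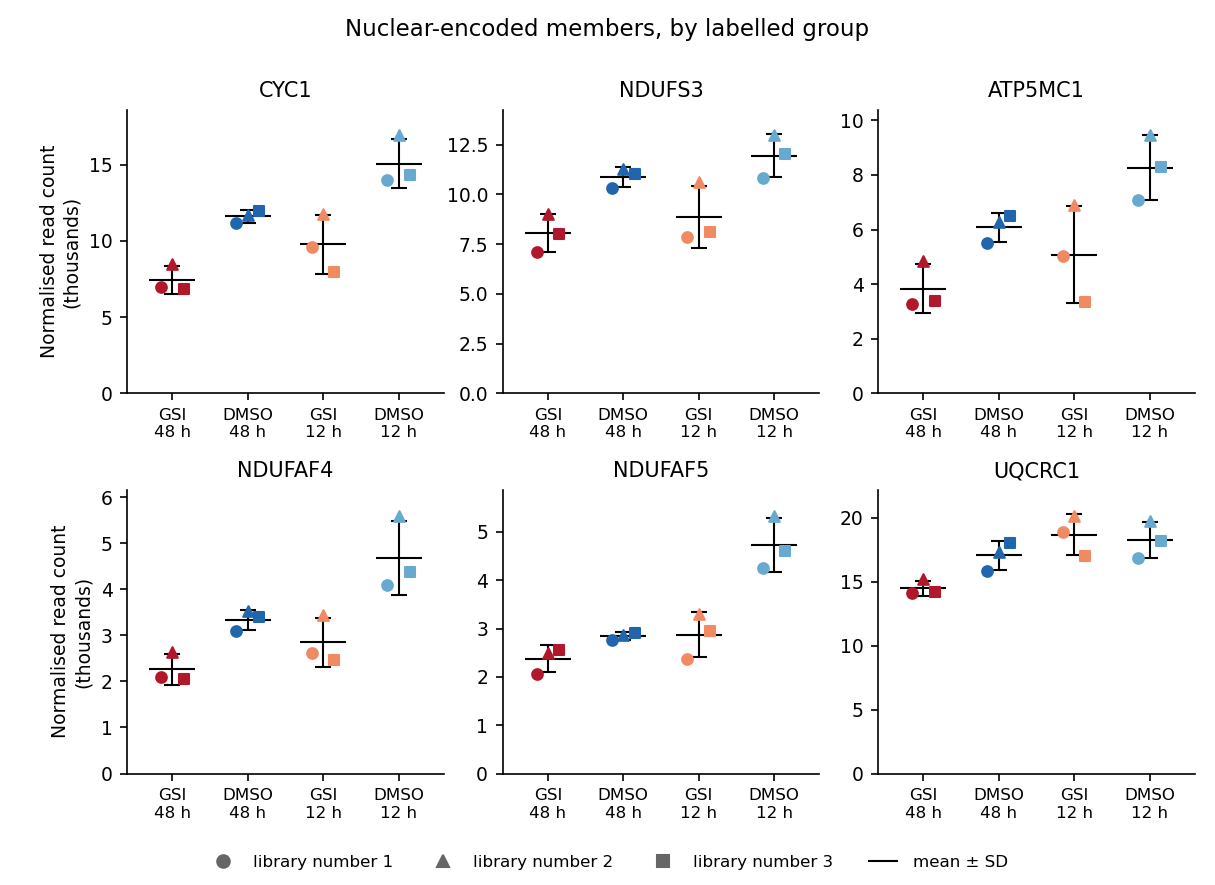
Normalised reads of CYC1, NDUFS3, ATP5MC1, NDUFAF4, NDUFAF5 and UQCRC1 in each library of GSI 48 h, DMSO 48 h, GSI 12 h and DMSO 12 h, with the mean and SD (n = 3). For CYC1, NDUFS3 and NDUFAF4 all GSI libraries lie below all DMSO libraries of their time.

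The NDUFAF family, whose members build complex I and are absent from the finished enzyme, held 5 of the 9 nuclear calls at 12 h. At 12 h, 5 of 8 were lower in GSI (62.5%, against 11.4% of all genes), the median being -0.60 on the log2 scale, and at 48 h 1 of 8 was lower (12.5%, against 5.35%) with a median of -0.31. With the replicate block 5 of 8 were lower at 48 h (62.5%, against 15.5% of all genes). The same block at 12 h gave 5 of 8 lower (62.5%, against 19.6% of all genes) and 1 higher (12.5%, against 16.5%). Without the block, 4 of the 83 nuclear genes outside the family were lower at 12 h. NDUFAF4, which acts in assembly of the membrane-bound arm, had 2085, 2645 and 2052 normalised reads in GSI 48 h against 3089, 3517 and 3403 in DMSO 48 h, and 2620, 3447 and 2467 in GSI 12 h against 4083, 5600 and 4375 in DMSO 12 h. Its groups were apart at both times, with log2 fold changes of -0.57 at 48 h (limma adjusted p = 0.0352) and -0.72 at 12 h (adjusted p = 0.0072).

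NDUFAF5, which modifies the NDUFS7 subunit, had 2380, 3305 and 2946 normalised reads in GSI 12 h against 4249, 5340 and 4607 in DMSO 12 h, with no overlap and a log2 fold change of -0.72 (limma adjusted p = 0.004). At 48 h it had 2070, 2502 and 2567 in GSI against 2766, 2859 and 2913 in DMSO, and -0.26. NDUFAF6, linked to the assembly of MT-ND1 into the complex, had 2047, 2284 and 2281 in GSI 12 h against 3054, 3449 and 3120 in DMSO 12 h, with a log2 fold change of -0.54 (adjusted p = 0.0033), and -0.30 at 48 h (adjusted p = 0.0531). NDUFAF2, an assembly chaperone of a late complex I intermediate, had -0.71 at 12 h (adjusted p = 0.0328) and -0.59 at 48 h (adjusted p = 0.0885). NDUFAF8, a partner of NDUFAF5, had -0.65 at 12 h (adjusted p = 0.049), a call that held in 2 of 12 fits that each left out 1 library, with a highest adjusted p of 0.183. The calls of NDUFAF4, NDUFAF5 and NDUFAF6 at 12 h held in all 12 such fits. NDUFAF1, NDUFAF3, which partners NDUFAF4, and NDUFAF7 did not pass the main test, with log2 fold changes of -0.16, 0.04 and 0.18 at 12 h.

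Between 48 h and 12 h, 1 member was lower within each treatment and 0 were higher. Within GSI this was UQCRC1, a core protein of complex III, with 14152, 15192 and 14181 normalised reads in GSI 48 h against 18871, 20185 and 17001 in GSI 12 h, no overlap and a log2 fold change of -0.36 (SE 0.09, limma adjusted p = 0.0381). It was 1 of 104 where 2.37% of all genes were lower and 1.62% higher, and without both GSI libraries numbered 2 its adjusted p was 0.135; the call held in 5 of 12 fits that each left out 1 library. Within DMSO it was NDUFAF5, whose values at 48 h and at 12 h stand above, with a log2 fold change of -0.73 (SE 0.13, adjusted p = 0.0062), where 2.51% of all genes were lower and 2.03% higher. No member was higher at an unadjusted limma p under 0.05 in either, or by edgeR or DESeq2. Of all 19281 genes, 1455 were higher at that p within GSI and 1587 within DMSO. MT-ND1 had log2 fold changes of 0.02 within GSI and 0.01 within DMSO.

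Same-numbered libraries of a treatment deviated together, and with the number as a block within treatment many more members were lower at 48 h. Within GSI, 55 of 104 were lower (52.9%, against 16.1% of all genes) and 0 higher (12.6% of all genes). They took in 13 of complex I, 3 of complex II, 7 of complex III, 8 of complex IV, 11 of complex V, 5 NDUFAF and 8 mitochondrial genes. Examples, named after their values were seen, were SDHA (log2 fold change -0.30, limma adjusted p = 0.000317), COX5B (-0.32, adjusted p = 0.000389), NDUFS4 (-0.35, adjusted p = 0.000362) and MT-CO2 (-0.24, adjusted p = 0.00121). Within DMSO, 24 were lower (23.1%, against 15.2% of all genes) and 0 higher (13.9% of all genes), with 8 of complex I, 1 of complex II, 4 of complex III, 5 of complex V and 6 of 8 NDUFAF genes. At an unadjusted limma p under 0.05 and with this block, 0 members were higher within GSI and 1 within DMSO. Of all 19281 genes, 3506 and 3663 were. NDUFAF5 led with an adjusted p of 1.57e-05, and CYC1 was at -0.37 (adjusted p = 0.00106). Without the block the nuclear medians were -0.17 within GSI and -0.09 within DMSO, and 86 and 74 of 91 had a negative log2 fold change.

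**Figure D5:**
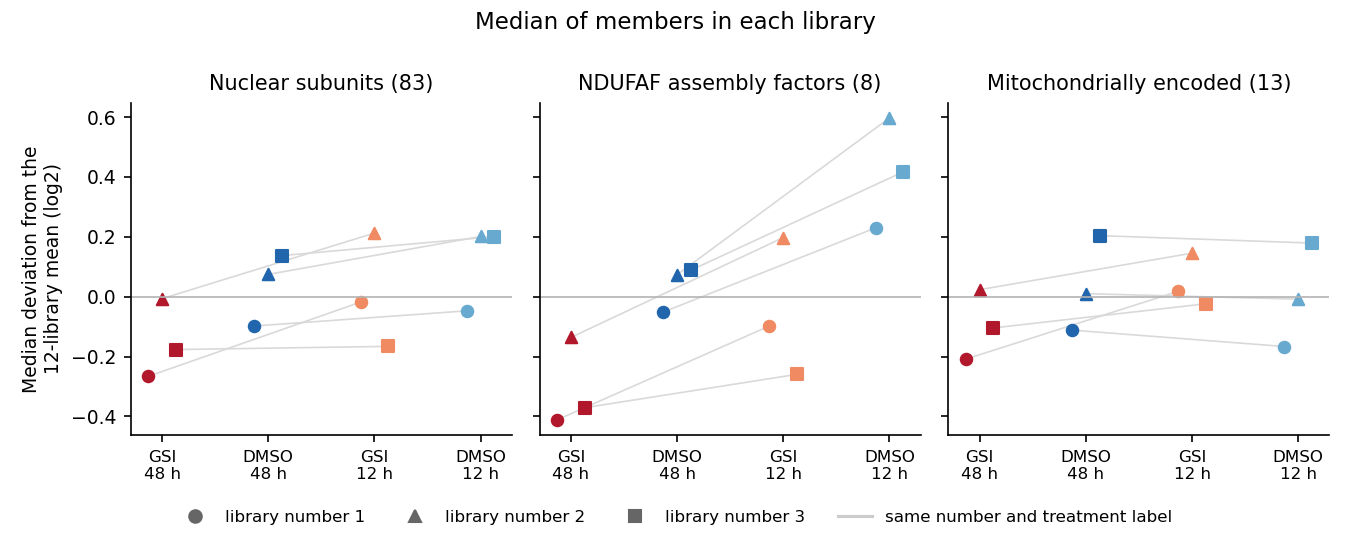
Median deviation (log2) of 83 nuclear genes outside the NDUFAF family, 8 NDUFAF genes and 13 mitochondrial genes from their mean over all libraries, 1 point per library, in GSI 48 h, DMSO 48 h, GSI 12 h and DMSO 12 h; lines join libraries of the same number and treatment. The NDUFAF points of DMSO 12 h are the highest, and the GSI libraries numbered 2 lie above the others of their group in all 3 sets.

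In the main test, which had no block, the GSI effect was not shown to differ between 48 h and 12 h for any member. In that test 0 of 104 members and 0.0% of all genes passed limma; 1 member, NDUFAF5, and 875 genes had an unadjusted p under 0.05, edgeR called 0 genes, and DESeq2 called 62 genes and 0 members. With the replicate block within treatment, 7 members passed, where 6.1% of all genes did in either direction. The difference was negative for 6 (5.77%, against 4.12% of all genes) and positive for 1 (0.962%, against 1.98%). The share of members that passed was thus near that of all genes. Among them, the GSI over DMSO log2 fold change at 48 h minus that at 12 h was -0.27 for NDUFS4 (adjusted p = 0.044), -0.27 for UQCRC1 (adjusted p = 0.041), -0.25 for MT-CO2 (adjusted p = 0.03), -0.22 for MT-ATP6 (adjusted p = 0.041) and -0.21 for MT-ND3 (adjusted p = 0.049). For NDUFAF5 it was 0.46 (adjusted p = 0.015).

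Other genes on which the chain depends were taken as lists, chosen with earlier results of these data known, and described by counts. Of 15 genes of mitochondrial RNA processing and stability, 2 were lower in GSI at 48 h (5.35% of all genes were) and 11 at 12 h (11.4% of all genes). Their medians were -0.31 and -0.43, where that of all genes was 0.00 after scaling by size factors. FASTKD2, which binds mitochondrial 16S rRNA and mRNAs, had 3203, 3962 and 3490 normalised reads in GSI 48 h against 4737, 4998 and 4980 in DMSO 48 h, with no overlap and log2 fold changes of -0.47 at 48 h (limma adjusted p = 0.0207) and -0.57 at 12 h (adjusted p = 0.00403). PNPT1, a mitochondrial exoribonuclease, had -0.48 (adjusted p = 0.034) and -0.69 (adjusted p = 0.00403). MTPAP, the mitochondrial poly(A) polymerase, and FASTKD3 passed at 12 h with -0.48 and -0.46, and LRPPRC, which stabilises mitochondrial mRNAs, did not, with -0.35 (adjusted p = 0.0574).

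Of 13 genes of mitochondrial transcription and replication, 2 were lower and 1 higher in GSI at 48 h, where 5.35% of all genes were lower and 4.33% higher. At 12 h, 5 were lower and 2 higher, where 11.4% of all genes were lower and 10.1% higher. TWNK, the replicative helicase, had log2 fold changes of -0.57 at 48 h and -1.03 at 12 h, and TFAM, which packs and transcribes mitochondrial DNA, -0.36 and -0.47, all past the limma threshold. MTERF2 was higher, by 0.40 and 0.66. Of 10 regulators of mitochondrial biogenesis, 2 were lower at 48 h and 7 at 12 h, beside the same 5.35% and 11.4% of all genes. Among them PPRC1, a PGC-1-related coactivator, had -0.53 at 48 h and -0.89 at 12 h.

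Assembly factors outside the NDUFAF family were also counted, beside the 5.35% of all genes lower and 4.33% higher at 48 h, and the 11.4% lower and 10.1% higher at 12 h. Of 9 for complex I, ECSIT alone was lower in GSI at both times, with log2 fold changes of -0.55 at 48 h and -0.35 at 12 h. Of 6 for complex III, BCS1L alone was, which inserts the Rieske protein, with -0.58 and -0.68. Of 22 for complex IV, 3 were lower at 48 h and 4 at 12 h, including COX10, a haem A synthesis enzyme, at -0.48 and -0.28. For complexes II and V, TMEM70, an ATP synthase assembly factor, was lower (-0.55 at 48 h and -0.53 at 12 h) and SDHAF4, which assembles SDHA with SDHB, was higher (0.60 and 0.70), out of 8 genes. Of 15 electron carriers and coenzyme Q synthesis genes, 2 were lower at 48 h, and 5 were lower and 1 higher at 12 h, with cytochrome c itself, CYCS, at -0.72 at 12 h. Of 18 pyruvate dehydrogenase and citrate cycle genes, DLAT alone passed, at 12 h, with a log2 fold change of -0.48 (adjusted p = 0.0167).

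Hypoxia-linked genes that limit respiration had calls in the higher direction. Of 11, 4 were higher in GSI at 48 h (4.33% of all genes were) and 8 at 12 h (10.1% of all genes), with medians of 0.53 and 0.88. BNIP3L, a relative of BNIP3, was higher by 2.05 at 48 h and 2.74 at 12 h on the log2 scale, and PDK1, which inhibits pyruvate dehydrogenase, by 1.76 and 2.74. The GSI libraries numbered 2 had the lowest BNIP3 of each GSI group and the highest MT-ND1, CYC1 and NDUFAF4. The part of this difference between libraries in the results above was not tested.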

How the data were processed

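Per the submitters' processing notes, which give no order, the authors used TopHat2 2.0.10, HTSeq 0.6.1, DESeq2 and FastQC 0.10.1 with build hg19. No source used here gives their annotation, strand or settings. The deposited signal values are read counts divided by a size factor per library: each gave whole reads for 100% of values within 0.01, from 73939612 to 160702764 reads a library. Identifiers without symbols were named from the table supplied with the data (50127 of 62069), and biotypes and lengths come from GENCODE 29.

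The main test was limma 3.58.1 (R 4.3.3, trended variance) on log2(value + 1), so fold changes are on that scale and understate low genes. All 12 libraries entered with 4 group means and no block, over the 19281 genes with a value of at least 10 in 3 libraries, with Benjamini-Hochberg adjustment over all of them and a threshold of 0.05. The edgeR 4.0.16 quasi-likelihood test on recovered reads called 4201 genes for GSI over DMSO at 12 h, 1919 at 48 h, and 931 and 740 for 48 h over 12 h in DMSO and GSI; DESeq2 1.42.0 was another alternative, with other scalings, filters, pseudocounts and libraries left out. The fit was also run on simulated counts with a common dispersion for all genes. These held no deviations shared by same-numbered libraries and no outlying libraries. That run therefore cannot show how pairing or single libraries affect the calls.

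Same-numbered libraries were checked for shared deviations from their group means. The correlations were 0.400 to 0.545 between GSI 48 h and GSI 12 h, 0.545 to 0.612 between DMSO 48 h and DMSO 12 h, 0.103 to 0.157 between GSI and DMSO at 48 h, and 0.0676 to 0.272 at 12 h. As every pair passed 0.1 in the first 3, the block is given beside those results; the pairing comes from the data, not from the labels.

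The members and all lists were chosen with earlier results of these data known. Genes named with values are all mitochondrial genes, up to 3 called members per complex, comparison and direction, the smallest p where a complex had no call, isoform pairs, and up to 4 called genes per list; a few others illustrate a complex and were chosen after their values were seen. Counting error was small at this depth, so the spread between libraries limits precision. No coordinates on hg19 are given. Of the 7 members past the threshold in the blocked test of the difference between times, 1 is not reported here.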

Additional observations from a re-analysis of the deposited data

How the results depend on the processing

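Counts of members called kept within 1.5 times the reported count under the settings not named here, and no call of a gene was reversed. The 12 h medians of complex IV and of the mitochondrial genes, 0.05 and 0.02, turned to -0.06 and -0.01 without both GSI libraries numbered 2. For GSI over DMSO at 48 h the count of 5 became 9 with DESeq2, 3 with total scaling over nuclear genes, 1 with no filter on low values, 9 with only the groups compared in the fit, and 36 without both GSI libraries numbered 2. In the same order, all genes called went from 1866 to 3231, 1849, 1075, 2467 and 4042. At 12 h the count of 10 became 5 with only the groups compared and 32 without both GSI libraries numbered 2, while all genes called went from 4144 to 2607 and 5743. Upper-quartile scaling gave 9 lower and 3 higher there, and total scaling 9 lower and 4 higher, against 10 lower and 0 higher; these scalings shifted the median of all genes by 0.0838 to 0.0894 in the GSI over DMSO comparisons. For 48 h over 12 h in DMSO the count of 1 became 4 with DESeq2, 3 with only the groups compared and 4 without both GSI libraries numbered 2. All genes called there went from 874 to 1568, 998 and 1159. In GSI the count of 1 became 3 with DESeq2, 0 with no filter, 2 with a limit of 50, 0 with only the groups compared and 0 without both GSI libraries numbered 2. All genes called there went from 768 to 1257, 675, 705, 477 and 427.

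Leaving out 1 library at a time gave 0 to 12 members at 48 h and 4 to 29 at 12 h, 0 to 3 for 48 h over 12 h in GSI, 1 to 1 in DMSO, and 0 to 0 for the difference between times. At 12 h the count moved past 1.5 times without GSI library 1, 2 or 3 or DMSO library 2 or 3 of that time; at 48 h without any of the 6 libraries of that time, GSI 12 h library 2 or 3, or DMSO 12 h library 3. For 48 h over 12 h in GSI it was 0 without any GSI 48 h library, DMSO 48 h library 2, GSI 12 h library 1 or 2 or DMSO 12 h library 3, and 3 without GSI 12 h library 3.

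With the replicate block the counts were 31 at 48 h and 29 at 12 h. The 29 were 22 lower (21.2%, against 19.6% of all genes) and 7 higher (6.73%, against 16.5%). For 48 h over 12 h the blocked counts were 55 in GSI and 24 in DMSO, and 7 for the difference. At 12 h the numbers did not pair by the rule used. Among single genes and settings, 4278 values kept their side of the threshold, 101 passed it that had not, and 67 no longer did. The cause of these moves was not tested.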
